A study of Mus musculus with 2 samples.

Results

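The less abundant arms of mouse microRNA (miRNA) hairpins, long called star strands, were examined as a block of array features. The block was taken by accession: it holds every feature whose first miRBase mature-sequence accession lies between MIMAT0004519 and MIMAT0004699, a range in which mostly minor arms of mouse hairpins were registered. This minor-arm block had 84 members among the 739 features in the deposited table. A further 204 features were numbered below 1000, mostly major arms registered early, and the remaining 451 fell elsewhere. Accessions are not paired with miRNA names in the sources used here, which left the features unnamed and without sequences, and whether each of the 84 is the minor arm of its hairpin was not checked.

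The features were read on 1 array of NOX1-deficient cells and 1 array of wild-type cells. Both were cultures of pulmonary arterial smooth muscle cells, which set the tone of the lung's arteries by contracting, from male mice on the C57BL/6 background. NOX1 is the catalytic core of an NADPH oxidase, an enzyme complex that makes superoxide. The labels describe each sample as cells of 3 mice, at passage 3, after 24 hours in DMEM/F-12 medium with 10% fetal bovine serum. The title of the NOX1-deficient sample calls its mice KO, that is, knockout. How the gene was disrupted, and whether the material of the mice was pooled, was not stated in the labels. The values are 1 linear intensity per feature and array, in arbitrary units, or null. The labelled cell type and the loss of NOX1 could not be checked with unnamed miRNA features. With 1 array per genotype there is no replicate spread, no test was made, and every difference below describes these arrays only.

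A miRNA hairpin is cut out of its primary transcript by Drosha and then trimmed by Dicer to a short duplex. An Argonaute protein takes up the duplex and keeps the strand whose 5′ end is less tightly paired, while the other, the passenger or star strand, is usually discarded and degraded. Some star strands escape this fate, are loaded into Argonaute and repress targets of their own, so both arms of a hairpin can be present in a cell.

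An intensity was listed for fewer of the 84 features in NOX1-deficient than in wild-type cells. On the NOX1-deficient array 57 of 84 had a value (67.9%), against 71% of the whole table. On the wild-type array 65 of 84 had a value (77.4%), against 73.9% of the whole table. Both arrays listed 53 of the 84 (63.1%, against 63.9% of the whole table), and neither listed 15 (17.9%, against 18.9%). In the block below 1000, 169 of 204 features had a value in NOX1-deficient cells (82.8%) and 172 in wild-type cells (84.3%). The 451 remaining features had 299 values in NOX1-deficient cells (66.3%) and 309 in wild-type cells (68.5%), closer to the 84 than to the block below 1000.

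Most members listed on 1 array only were read near the bottom of the scale. Only the NOX1-deficient array listed 4 of the 84, against a background of 7.17% of all features, and their values were 0.94, 1.18, 1.38 and 1.55 units. Only the wild-type array listed 12 of the 84, against a background of 10% of all features. Those 12 lay between 0.98 and 2.28 units with a median of 1.28. The highest of them was above the median of all listed members on that array, 1.89 units. The lowest value listed anywhere in the table was 0.93 units on the NOX1-deficient array and 0.96 units on the wild-type array. When a feature had to reach 2 units to count, 31 of the 84 did so in NOX1-deficient cells and 31 did so in wild-type cells. This was 36.9% of the members on either array, against 46.8% of all features in NOX1-deficient and 48.8% in wild-type cells. The table does not say whether a null is a value under a limit or a rejected spot.

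**Figure D1:**
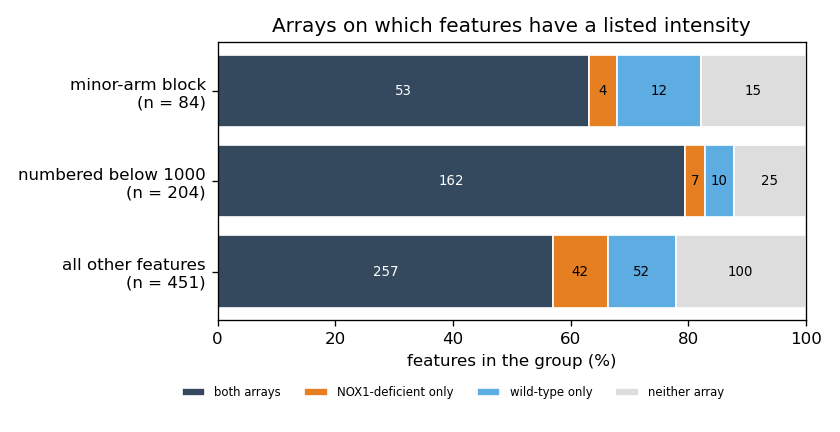
Horizontal bars show, for each accession block, the percentage of its features with an intensity on both arrays, on 1 array only or on neither; the numbers in the bars are feature counts. In the minor-arm block, 53 were listed on both arrays, 4 on the NOX1-deficient array only, 12 on the wild-type array only and 15 on neither. Over the whole table the shares, in the same order, were 63.9%, 7.17%, 10% and 18.9%.

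Most members were dim. The block's listed values ran from 0.94 to 32.6 units in NOX1-deficient cells, with quartiles of 1.55, 2.07 and 4.24 units. In wild-type cells they ran from 0.96 to 34.1 units, with quartiles of 1.34, 1.89 and 4.30 units. Features numbered below 1000 had medians of 10.6 units in NOX1-deficient and 10.7 units in wild-type cells, and reached 2289 units in NOX1-deficient and 2079 units in wild-type cells. Over features listed on both arrays, the median of the mean log2 intensity in the minor-arm block, minus that in the block below 1000, was -2.58 (2.12 units in the minor-arm block and 12.7 units in the block below 1000). Probes differ in affinity and labelling, so this sets distributions of probe brightness side by side and does not measure how much less of the minor arms the cells held.

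No member reached 100 units on either array. In the block below 1000, 35 of 204 did in NOX1-deficient cells and 33 in wild-type cells. Over the whole table, 7.98% of features did on either array. Among the features in neither block, 5.32% did in NOX1-deficient and 5.76% in wild-type cells. At least 10 units were read for 9 members in NOX1-deficient and 8 in wild-type cells, or 10.7% and 9.52% of the 84. Over the whole table the share was 21.4% in NOX1-deficient and 21.2% in wild-type cells. In the block below 1000 the share was 43.1% in NOX1-deficient and 42.6% in wild-type cells. Among the 451 remaining features it was 13.5% in NOX1-deficient and 13.7% in wild-type cells. Low brightness was thus also found in most of the table outside the block below 1000.

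**Figure D2:**
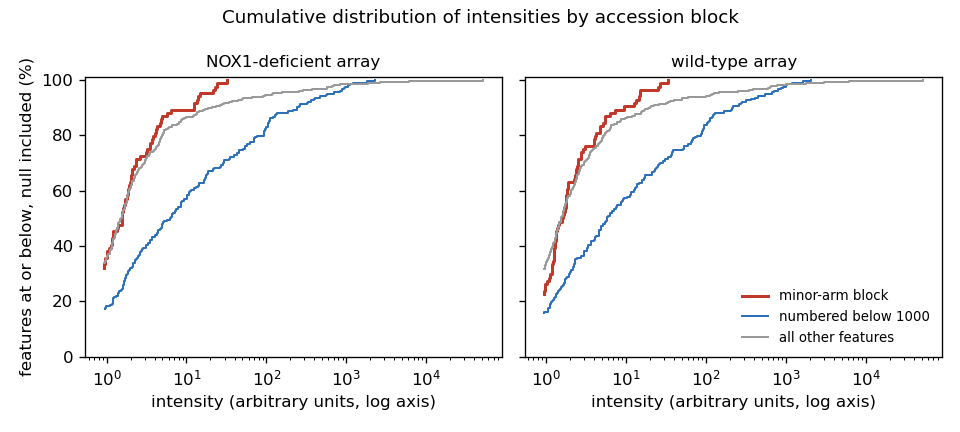
Each line gives the percentage of a block's features at or below an intensity (log axis, arbitrary units), with nulls counted as below all listed values; the left panel is the NOX1-deficient array and the right panel the wild-type array. The line of the minor-arm block ends at 32.6 units on the left and 34.1 units on the right, and lies above that of the block below 1000 over its whole length on both arrays.

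Within the accession range the features fell into 4 runs of neighbouring numbers, and bright and dim members were mixed in each of the 3 larger ones. The lowest run, ending at 4547, had 28 features, of which 17 were listed in NOX1-deficient and 20 in wild-type cells, and it held the brightest member. The run from 4572 to 4583 had 12 features, 9 listed in NOX1-deficient and 10 in wild-type cells, with highest values of 4.93 units in NOX1-deficient and 5.47 units in wild-type cells. The run from 4616 to 4670 had 42 features, 29 listed in NOX1-deficient and 33 in wild-type cells. The last run had 2 features, both listed on both arrays. Next to the range on either side, the nearest feature below it read 4.49 units in NOX1-deficient and 3.56 units in wild-type cells, and the nearest above it was null in NOX1-deficient cells and 0.96 units in wild-type cells.

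Features with several accessions touch the edge of the block. Among the 84, 1 feature carries a second accession outside the range, and it read 1.22 units in NOX1-deficient and 1.13 units in wild-type cells. Another feature has its second accession inside the range but its first below 1000, so it was counted in the block below 1000. It read 400.6 units in NOX1-deficient and 369.3 units in wild-type cells.

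For the comparison of genotypes, the 472 features listed on both arrays were split at the median of their mean log2 intensity (4.43 units), because small intensities give large ratios. Of the 53 members listed on both arrays, 17 lay in the brighter part (32.1%) and 36 in the dimmer part. In the block below 1000, 114 of 162 lay in the brighter part (70.4%). Among the remaining features 105 of 257 did (40.9%), and over all 472 the share was 50% by construction. By quartile of brightness, each of 118 features, the members numbered 3, 14, 14 and 22 from the brightest down.

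The brightest member read 32.6 units in NOX1-deficient and 34.1 units in wild-type cells, and ranked 97 of the 472. The next read 24.4 units in NOX1-deficient and 25.1 units in wild-type cells. The third read 23.1 units in NOX1-deficient and 26.5 units in wild-type cells. All 3 were slightly lower in NOX1-deficient cells as deposited, with log2 differences (NOX1-deficient minus wild-type) of -0.06, -0.04 and -0.20. Median centring adds 0.10 to every difference, more than the sizes of -0.06 and -0.04, so the direction of these rests on the scaling. Below the fourth, described next, the fifth to eighth brightest members read 14.7, 14.1, 13.6 and 12.3 units in NOX1-deficient cells and 14.9, 14.6, 13.5 and 12.5 units in wild-type cells. These 4 were nearly the same on both arrays, with log2 differences from -0.05 to 0.01.

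A few of the brighter members stood further apart. MIMAT0004629 read 21.3 units in NOX1-deficient and 14.8 units in wild-type cells, 1.44-fold higher (log2 difference 0.52). MIMAT0004684 read 5.76 units in NOX1-deficient and 4.04 units in wild-type cells, 1.43-fold higher (log2 difference 0.51). These had the largest positive differences of the 17, and the next read 12.5 units in NOX1-deficient and 9.40 units in wild-type cells (log2 difference 0.41). In the other direction, MIMAT0004530 read 4.03 units in NOX1-deficient and 6.29 units in wild-type cells, 1.56-fold lower (log2 difference -0.64). MIMAT0004577 read 3.83 units in NOX1-deficient and 5.14 units in wild-type cells, 1.34-fold lower (log2 difference -0.42). The first of the 2 higher features was the fourth brightest member, whereas the other 3 named here lay between 4.44 and 5.03 units of mean intensity, next to the boundary between brighter and dimmer features.

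**Figure D3:**
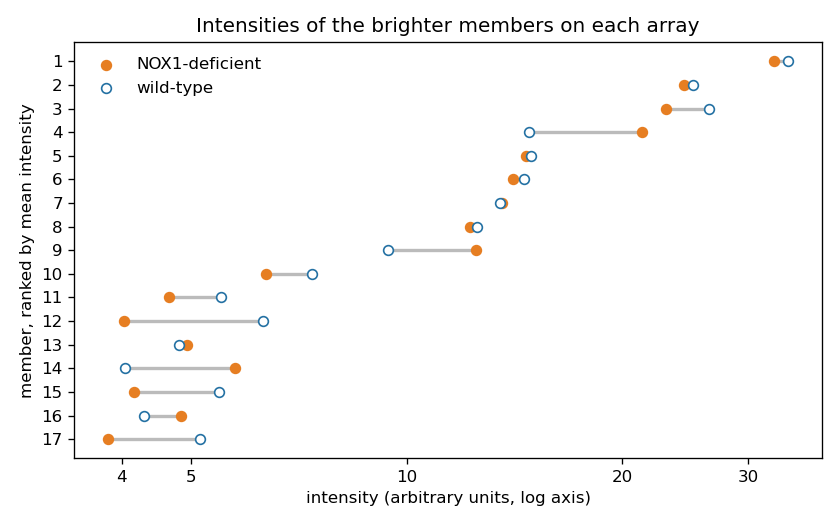
Intensities (arbitrary units, log axis) of the 17 brighter members on the NOX1-deficient array (filled) and the wild-type array (open), ranked from the brightest at the top; each row is 1 feature and the line joins its 2 readings. The first 3 ranks and ranks 5 to 8 nearly coincide or lie close, while rank 4 (21.3 units NOX1-deficient, 14.8 units wild-type) and rank 12 (4.03 units NOX1-deficient, 6.29 units wild-type) show the widest gaps in each direction among those above 5 units of mean intensity.

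At a threshold of 1.5-fold, 0 of the 17 brighter members were higher in NOX1-deficient cells, against a background of 1.27% of the 236 brighter features. At the same threshold 1 of the 17 was lower, against a background of 1.69%. At 2-fold the counts were 0 and 0, as they were over all 236 brighter features (background 0% in either direction). After median centring of the arrays, the counts past the 1.5-fold threshold were 2 higher (background 2.97% of the 236 under the same centring) and 0 lower (background 0.424%). Counts of 0 to 2 among 17 features are too few to set the members apart from the rest of the table.

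Of the 17, 6 were above 0 and 11 below (35.3% above, against 51.7% of all brighter features), and the median of their log2 differences was -0.04, against 0.01 over all brighter features. In the block below 1000, 76 of 114 were above 0 and the median was 0.06. The remaining brighter features had 40 of 105 above 0 and a median of -0.06, so a lean below 0 was seen outside the 84 as well. The direction rests on the scaling of the arrays: after median centring, which adds 0.10 to every difference, 11 of the 17 were above 0 and the median was 0.06, against 0.11 over all brighter features. After quantile normalization 8 of the 17 were above 0, 8 below, and the median was 0, as it was over all brighter features. The share of all brighter features above 0 was not counted under these settings.

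At matched brightness the members' spread was similar to that of other features. Between 4.44 and 33.4 units, the range of the brighter members, the log2 differences had an SD across features of 0.32 over the 17 members and 0.27 over 123 features outside the block. The median was -0.04 over the members and -0.002 over the others. The genotypes read within 1.2-fold of each other in 11 of the 17 members (64.7%) and in 83 of the 123 others (67.5%). Across the 17, log2 intensities in NOX1-deficient and wild-type cells had a Pearson r of 0.954 and a Spearman rho of 0.875. This is a description over features that share 2 arrays, not over replicates.

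Ratios were wider among the 36 dimmer members, as they were for dim features in general. At 1.5-fold, 2 of the 36 were higher in NOX1-deficient cells, against a background of 6.78% of the 236 dimmer features. One read 2.37 units in NOX1-deficient and 1.28 units in wild-type cells, and the other 1.95 units in NOX1-deficient and 1.21 units in wild-type cells. At the same threshold 5 of the 36 were lower, against a background of 12.7%. The farthest read 1.19 units in NOX1-deficient and 2.38 units in wild-type cells, a ratio of 0.5, and was the 1 member that reached 2-fold in the lower direction (background 3.39%). The other 4 that were lower read 1.65, 1.56, 1.13 and 1.16 units in NOX1-deficient cells and, in the same features, 3.11, 2.74, 1.77 and 1.77 units in wild-type cells. None was at least 2-fold higher (background 0.424%).

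All 7 of these features were read at or below 3.11 units on both arrays, in the dimmer part of the features listed on both, and how precise a reading is at that level is unknown here. The 36 were split evenly, 18 above 0 and 18 below (48.7% of all dimmer features were above 0), with a median log2 difference of -0.02, against -0.01 over all dimmer features. Their SD across features was 0.46, against 0.47 over dimmer features outside the block. Across the 36, Pearson's r between the arrays was 0.685 and Spearman's rho 0.629, over a narrower range of intensities than that of the brighter members.

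Taking brighter and dimmer members together, 2 of 53 were at least 1.5-fold higher in NOX1-deficient cells (background 4.03%) and 6 at least 1.5-fold lower (background 7.2%). At 2-fold, 0 were higher (background 0.212%) and 1 was lower (background 1.69%). Of the 53, 24 were above 0, against 50.2% of all features on both arrays, and their median log2 difference was -0.04, against 0.004 over the 472.

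**Figure D4:**
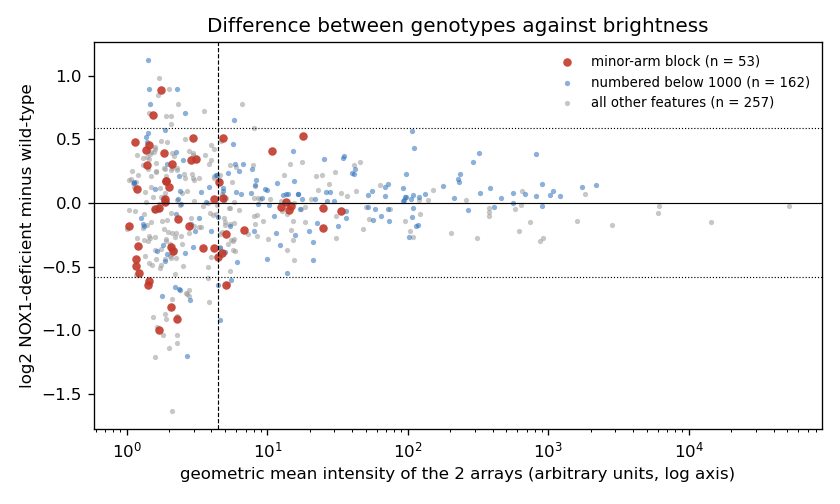
Difference on the log2 scale, as NOX1-deficient minus wild-type, against the geometric mean intensity of the arrays (log axis, arbitrary units) for the 472 features listed on both; red points are the 53 of the minor-arm block. Dotted lines mark 1.5-fold in either direction and the dashed line the brightness split at 4.43 units; 1 red point lies beyond a dotted line to its right and 7 to its left.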

How the data were processed

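Per the labels' protocols, RNA came from the miRNeasy mini kit and carried the dye Hy5 (miRCURY labelling kit). The authors deposited 1 intensity per feature and array, in arbitrary units. A linear scale was inferred from the values. No source used here states the scanner, background correction, normalization or meaning of null. No spot-level error was used, and the number of arrays limits the precision.

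Log2 differences used the deposited intensities with no pseudocount. The brightness filter kept features with a mean log2 intensity no lower than the median of the 472 listed on both arrays. Background percentages were counted over all features that pass the same filter. Backgrounds past the fold thresholds were not counted under quantile normalization, the loess curve or log2(intensity + 1). Whether member counts under these settings differ from the table is therefore unknown. The counting was tested on simulated data, with planted changes far beyond the 1.5-fold threshold and little noise. That checks the counting itself and not how reliable counts near the threshold are. The members, lists and thresholds were chosen with earlier results of these data known. The lists of miRNAs written by name and the pairing of hairpin arms were not evaluated, since 0 accessions occur in the reference tables used here. The naming rule then allowed the 2 largest positive and 2 largest negative differences among the brighter members. Alternatives covered median centring, quantile normalization, a loess curve (span 0.4), log2(intensity + 1), no brightness filter and nulls at the lowest listed value. The loess curve came from statsmodels 0.14.6, the correlations from scipy 1.17.1, and the rest from pandas 2.3.3 under Python 3.11.15.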

Additional observations from a re-analysis of the deposited data

How the results depend on the processing

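At 1.5-fold, quantile normalization and the loess curve also gave 0 higher and 1 lower among the 17 brighter members. Median centring gave 2 and 0, and log2(intensity + 1), which shrinks ratios, gave 0 and 0. Of these, only centring has a counted background. Without the brightness filter the counts were 2 and 6 at 1.5-fold, with 1 lower at 2-fold. Unfiltered, with each null replaced by its array's lowest value, they were 3 and 9 of 84, or 3.57% and 10.7%, against 4.60% and 8.12% of all 739 features, with 2 lower at 2-fold (2.38%, against 1.62%). The median difference over the 17, -0.04, became 0.0558 after median centring, 0 after quantile normalization and -0.0631 in the brightest quartile, which holds 3 members. Over all 53 members, -0.04 became 0.0558 after median centring, 0.00328 after quantile normalization, -0.0223 after the loess curve and -0.0278 with log2(intensity + 1). With nulls replaced it was -0.0631. Features listed in NOX1-deficient and wild-type cells, 57 and 65, became 31 and 31 at 2 units (background 46.8% and 48.8% of all features). They were 56 and 64 without the feature of several accessions, and 58 and 66 with the feature whose second accession is in the range, chosen after seeing the data. The brightness gap to the block below 1000, -2.58 on the log2 scale, was -2.36 on the NOX1-deficient array, -2.50 on the wild-type array and -2.001 with nulls replaced. None of the 16 recomputed differences of the 4 named features changed sign, and their sizes ran from 0.33 to 0.62. The 4 were picked as the largest of these same differences. Adding 1 to each intensity cannot change a sign, and median centring adds less than the size of any of the 4. The unchanged signs are therefore no independent support for these features. Apart from changes that follow from a setting's construction, the cause was not tested. With 1 array per genotype, no paired analysis was possible and no replicate could be left out. A comparison of arms within hairpins was not run, since features are unnamed. No background signal was used here, so how far it limits the dim features is unknown.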
